A study of Homo sapiens with 6 samples.

Results

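The genes described here are STAT3, the Janus kinases JAK1 and JAK2, the feedback inhibitors SOCS1, SOCS2, SOCS3 and CISH, and the STAT3 target genes PIM1, BCL3 and A2M. They were taken by symbol from the deposited expression table, which holds 58735 genes, and all 10 were found. A375, a long-established line of human melanoma cells, was profiled by sequencing of polyadenylated RNA in 2 groups of 3 libraries, one kept with the solvent DMSO and the other with CuB for 6 h. CuB stands for cucurbitacin B, a plant triterpenoid, per the title of the series, which also names STAT3 in the pathway under study. The dose is uncertain, since the protocol states 0.2 µM and the names of the libraries 100 nM. Nothing in the labels says that the 3 libraries of a group were grown separately, and p-values here therefore reflect only how far these libraries vary, which may be technical.

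In this pathway a cytokine brings its receptor chains together, the JAK kinases bound to them phosphorylate the receptor and then a STAT protein, and the phosphorylated STAT pairs up, enters the nucleus and turns on genes. Among those genes are SOCS1, SOCS2, SOCS3 and CISH of the SOCS family, whose proteins bind receptor or kinase and shut the signal down. The mRNA of these genes is therefore widely read as an output of the pathway. STAT3 is activated mainly by cytokines of the interleukin-6 family and is often active in melanoma, and its activity depends on phosphorylation, which mRNA levels do not show.

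The RefSeq promoter table (build GRCh38.p14) held windows for 8 of the 10 genes, with none for SOCS2 and A2M. Each window runs from 250 bases before a transcript start to 50 bases after it. The windows were searched on both strands for the STAT motif TTCNNNGAA, the AP-1 motif TGANTCA, the cyclic AMP response element TGACGTCA and the NF-kB motif GGANTTTCC. Of 35116 promoter windows in the table, 7.66% held the STAT motif, 7.71% the AP-1 motif, 1.85% the cyclic AMP response element and 1.64% the NF-kB motif. Of the 8 members with windows, CISH alone held a match, and its window held 4, all to the STAT motif. Its 250 bases before the start are shown because they carry all 4 matches, which are in capitals. They lie on the minus strand at chr3:50611775-50612024 and are written 5′ to 3′.
CISH: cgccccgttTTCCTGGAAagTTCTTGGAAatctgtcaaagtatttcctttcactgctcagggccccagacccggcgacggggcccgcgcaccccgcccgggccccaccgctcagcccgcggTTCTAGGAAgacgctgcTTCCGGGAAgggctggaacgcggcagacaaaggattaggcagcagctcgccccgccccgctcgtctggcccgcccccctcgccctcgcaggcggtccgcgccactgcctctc
Counted from the start site, the matches are TTCCTGGAA from -241 to -233, TTCTTGGAA from -230 to -222, TTCTAGGAA from -129 to -121 and TTCCGGGAA from -112 to -104. A match is a stretch of letters and not a measured binding site, and a window without one says only that these letters are not in it. The SOCS3 windows (chr17:78360876-78361175 and 78359618-78359917) do not cover the start of the gene as given below, 78360077. The BCL3 window (chr19:44748458-44748757) does not cover 44747705, where that gene starts. The bases just before these SOCS3 and BCL3 gene starts were therefore not searched. The PIM1 window (chr6:37169902-37170201) ends just before its gene start, 37170203.

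Values are FPKM, fragments scaled by gene length and by library size. The length counts all annotated exon bases of a gene, whichever transcripts the cells make. Levels, sums, shares and ratios of different genes therefore compare them only roughly. Differences were tested with limma on log2(FPKM + 1) for the 13273 genes that averaged 1 FPKM or more over the 6 libraries. Fold changes from this fit are CuB minus DMSO, and they understate the change of weakly expressed genes. Adjusted p-values are Benjamini-Hochberg values over all tested genes, and a gene was called changed at an adjusted p under 0.05. Of the 10 genes 8 were tested, and SOCS1 and CISH lay under the filter. With CuB, JAK2, SOCS2, SOCS3, PIM1 and BCL3 rose, A2M fell, and STAT3 and JAK1 did not pass the test. Over all tested genes, 22.9% rose, 15.6% fell and 38.6% changed in either direction. The DMSO and CuB values did not overlap in 8 of the 8 tested genes, 6 being higher and 2 lower with CuB, and the same held for 51.5% of all tested genes. The median log2 fold change was 0.67 over the 8 genes and 0.05 over all tested genes. The lowest value of any of the 8 in any library was 1.79 FPKM, so none passed the filter only through its higher group.

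**Figure D1:**
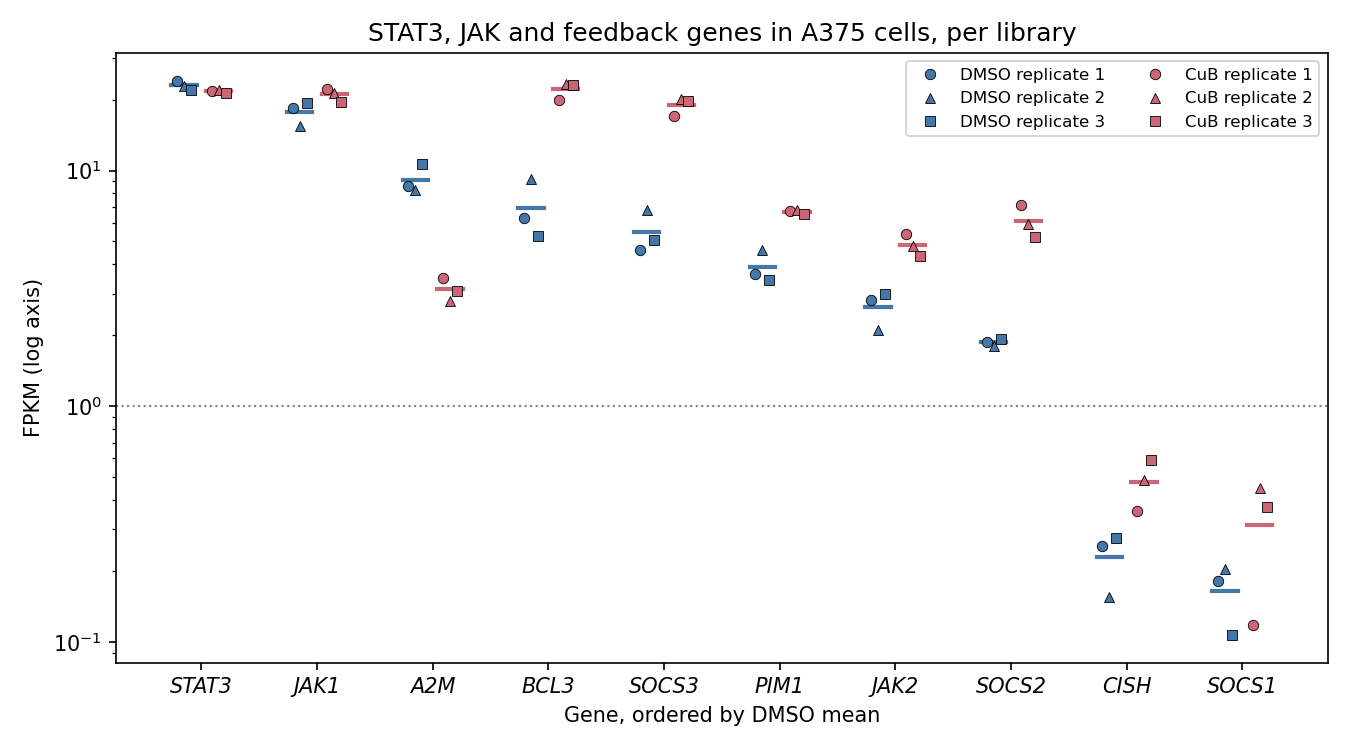
Expression of the 10 genes in each library. The vertical axis is FPKM on a log scale, each point is a library (blue DMSO, red CuB, with a marker shape for each replicate number), short bars are group means and the dotted line is the filter of 1 FPKM. STAT3 lies between 21.4 and 24.0 FPKM in all 6 libraries, SOCS2, SOCS3 and BCL3 are higher in every CuB library, A2M is lower, and CISH and SOCS1 lie under 1 FPKM.

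Sequencing depth was 14845976 to 15797757 fragments with DMSO and 15502971 to 16137093 with CuB, and the ranges overlapped. An exact two-sided permutation test gave p = 0.2, but with 3 libraries a group its p cannot go below 0.1, so it cannot show that depth was alike. The size by which the deposited FPKM were scaled was not the fragment total: it was 1.03 to 1.04 times that total with DMSO and 0.914 to 0.927 times with CuB. For this scaling size the same permutation test gave p = 0.1, the smallest it can give. Rescaling to equal fragment totals moved the median change over all tested genes, in log2, from 0.05 to -0.09. Of 9 melanocyte lineage markers 5 reached 1 FPKM in a library, and their sum was 198.7 to 290.8 FPKM with DMSO and 199.1 to 258.9 FPKM with CuB. SOX10, a melanocyte lineage factor, averaged 198 FPKM (DMSO) and 218 FPKM (CuB), S100B 26.4 and 6.64 FPKM and S100A1 4.80 and 1.91 FPKM, MLANA reached at most 1.29 FPKM, and the pigment genes TYR, TYRP1, DCT and PMEL were at or below 0.264 FPKM in all 6 libraries. Of 4 markers of dedifferentiated melanoma, AXL averaged 29.3 (DMSO) and 81.7 FPKM (CuB), NGFR 3.03 and 17.3 FPKM and VIM 234 and 272 FPKM. TNC went the other way, from 257 to 167 FPKM. The sum over all 4 was 513.7 to 531.5 FPKM with DMSO and 527.1 to 544.6 FPKM with CuB. Of 5 keratinocyte markers KRT10 and KRT14 reached 1 FPKM, and the sum was 16.02 to 22.09 FPKM with DMSO and 25.9 to 28.4 FPKM with CuB, with KRT5, KRT1 and TP63 at or near 0. The part of these marker differences in the results that follow was not tested. Of 5 leukocyte and 3 endothelial markers none reached 1 FPKM in any library, and their summed levels were at most 0.460 and 0.548 FPKM. Of 5 fibroblast markers 1 reached it, LUM, and the sum was 1.28 to 1.72 FPKM with DMSO and 0.572 to 0.979 FPKM with CuB. In bulk RNA, fewer cells that express a gene and less of its mRNA per cell cannot be told apart.

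STAT3 (ENSG00000168610, GRCh38 chromosome 17, 42313324 to 42388568, minus strand) encodes the transcription factor itself. Its values were 24.0, 22.9 and 22.0 FPKM with DMSO and 21.7, 22.0 and 21.4 FPKM with CuB. The lowest DMSO and the highest CuB library were nearly equal, although the groups did not overlap. The log2 fold change was -0.08, with a 95% interval of -0.25 to 0.09 (adjusted p = 0.427), so a change of the mRNA beyond that interval was not seen at this scaling. With equal fragment totals the values were 24.9, 23.8 and 22.7 against 19.9, 20.3 and 19.8 FPKM, and STAT3 then passed as lower (-0.24, adjusted p = 0.0386), as it did with quantile normalization (-0.26, adjusted p = 0.0325). Among all 10 genes STAT3 had the highest level with DMSO. With CuB, BCL3 averaged higher than STAT3, but their ranges overlapped.

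A list of 6 STAT genes, STAT3 among them, was read together because their proteins share partners and target sites. Their summed level was 61.9 ± 3.02 FPKM with DMSO and 62.9 ± 2.24 FPKM with CuB (SD, n = 3 each), and the groups overlapped. STAT3 made up 37.2% of it with DMSO and 34.6% with CuB, and these shares overlapped too. Of the 5 that were tested, 1 rose and 1 fell, and the median log2 fold change was -0.08, the value of STAT3. STAT5A, a mediator of growth hormone and prolactin signals, was at 6.01, 7.65 and 6.66 FPKM with DMSO and 12.0, 12.3 and 13.2 FPKM with CuB. It rose by 0.80 (adjusted p = 0.00123), and its share of the summed level went from 10.9% to 19.9%. STAT2, a transcription factor of type I interferon signalling, was at 9.13, 10.3 and 9.24 FPKM against 5.80, 6.12 and 6.30 FPKM and fell by 0.58 (adjusted p = 0.00216). The count of these STAT genes called lower was 3 with quantile normalization and with equal fragment totals, and 2 were called higher with a correction for GC content.

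JAK1 (ENSG00000162434, chromosome 1, 64833229 to 64966504, minus strand) is the kinase that most receptors of the interleukin-6 family depend on. It was at 18.4, 15.4 and 19.3 FPKM with DMSO and at 22.2, 21.3 and 19.6 FPKM with CuB. All CuB values were above all DMSO values, but DMSO replicate 3 and CuB replicate 3 were close. The log2 fold change was 0.24 (95% interval -0.01 to 0.49, adjusted p = 0.110). JAK1 passed with a correction for GC content (0.25, adjusted p = 0.00930), while with equal fragment totals its groups overlapped and the difference was 0.08 (adjusted p = 0.557).

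JAK2 (ENSG00000096968, chromosome 9, 4984390 to 5128183, plus strand) serves receptors for growth hormone, erythropoietin and interferon gamma as well as those of the interleukin-6 family. It was at 2.82, 2.10 and 2.99 FPKM with DMSO and at 5.39, 4.76 and 4.36 FPKM with CuB. Every CuB library was well above every DMSO library. JAK2 rose 1.83-fold in mean FPKM, from 2.64 ± 0.473 to 4.84 ± 0.519 (SD, n = 3 each), and on log2(FPKM + 1) the difference was 0.69 (limma SE 0.128, adjusted p = 0.00614). Of all tested genes 9.70% had a larger log2 fold change.

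A ratio within a library does not change when the library is scaled by a single factor. The ratio of JAK2 to JAK1 was 0.153, 0.136 and 0.155 with DMSO and 0.243, 0.224 and 0.222 with CuB. The groups did not overlap, and scaling each library by a single factor would leave this as it is. The difference in the ratio was not tested. TYK2, the kinase of type I interferon and interleukin-12 receptors, was at 14.4, 20.9 and 13.8 FPKM with DMSO and 17.0, 19.2 and 21.5 FPKM with CuB, and the groups overlapped (0.24, adjusted p = 0.301). Without DMSO replicate 2 the difference was 0.42 (adjusted p = 0.0243), and with the GC correction it was 0.21 (adjusted p = 0.00977, or 0.0301 with the replicate block as well). JAK3, whose known expression is mainly in blood cells, was at or below 0.242 FPKM in all 6 libraries. Of the 3 JAK kinases tested, JAK2 rose and none fell, and the median log2 fold change was 0.24. With the GC correction all 3 were called higher. The summed level of the 4 kinases was 36.9 ± 1.53 FPKM with DMSO and 45.2 ± 0.552 FPKM with CuB, of which JAK2 held 7.18% and 10.7%. JAK2 thus stayed the smallest of the 3 expressed kinases in every library.

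**Figure D2:**
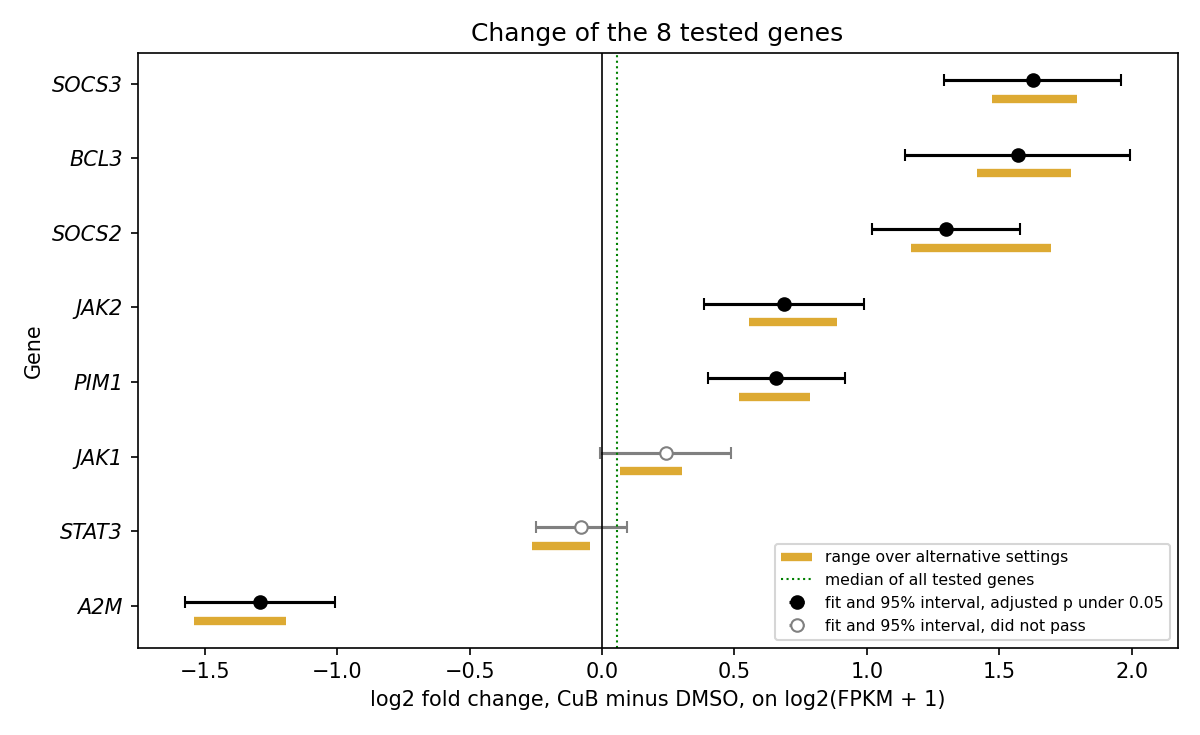
Log2 fold change (CuB minus DMSO, on log2(FPKM + 1)) of the 8 tested genes on the horizontal axis. Points are the limma estimates with 95% intervals (filled where the adjusted p is under 0.05), gold bars the range over the alternative settings and the green dotted line the median of all tested genes. SOCS3 (1.63), BCL3 (1.57) and SOCS2 (1.30) lie farthest to the right, A2M (-1.29) to the left, and STAT3 and JAK1 have intervals that include 0.

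SOCS3 (ENSG00000184557, chromosome 17, 78356778 to 78360077, minus strand) is the main feedback inhibitor of the interleukin-6 receptor chain and its JAK kinases. It was at 4.60, 6.81 and 5.08 FPKM with DMSO and at 17.0, 20.1 and 19.7 FPKM with CuB. The lowest CuB library was far above the highest DMSO library. SOCS3 rose 3.44-fold, from 5.50 ± 1.16 to 18.9 ± 1.70 FPKM (SD, n = 3 each), and on log2(FPKM + 1) the difference was 1.63 (limma SE 0.141, adjusted p = 0.000240). Of all tested genes 1.82% had a larger log2 fold change. The ratio of SOCS3 to STAT3 within a library was 0.191, 0.297 and 0.231 with DMSO and 0.780, 0.913 and 0.919 with CuB. The groups did not overlap, and the difference in the ratio was not tested. Each FPKM rests on the annotated exon length of its gene, so the ratio does not give relative numbers of mRNA molecules.

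SOCS2 (ENSG00000120833, chromosome 12, 93569814 to 93583487, plus strand) is best known as a brake on growth hormone signalling through STAT5. It was at 1.87, 1.79 and 1.93 FPKM with DMSO and at 7.17, 5.93 and 5.20 FPKM with CuB. The DMSO libraries were nearly identical and the CuB libraries all higher, with replicate 1 the highest. SOCS2 rose 3.27-fold, from 1.87 ± 0.0679 to 6.10 ± 0.993 FPKM, and on log2(FPKM + 1) the difference was 1.30 (limma SE 0.118, adjusted p = 0.000299). The ratio of SOCS2 to SOCS3 within a library was 0.350 ± 0.0765 with DMSO and 0.327 ± 0.0838 with CuB (SD, n = 3 each), and the groups overlapped. The antisense gene SOCS2-AS1 shares 277 of the 6776 exon bases of SOCS2, and since strand was not marked by the library kit, reads in that stretch cannot be assigned. SOCS2-AS1 averaged 0.377 FPKM (DMSO) and 0.904 FPKM (CuB).

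CISH (ENSG00000114737, chromosome 3, 50606490 to 50611831, minus strand), the founding member of the family and a target of STAT5, was weakly expressed. It was at 0.255, 0.155 and 0.276 FPKM with DMSO and at 0.359, 0.487 and 0.589 FPKM with CuB. The CuB values were all above the DMSO values. The groups held 55 and 108 fragments in all, and the ratio corrected for library size was 2.11, with an exact 95% interval of 1.51 to 2.98 that covers counting error only. Under the fit without a filter CISH did not pass (adjusted p = 0.125). CISH shares 218 of its 5112 exon bases with MAPKAPK3 on the other strand, which averaged 9.83 FPKM (DMSO) and 12.2 FPKM (CuB), and the part of those reads in the value of CISH was not tested. CISH is the gene whose promoter window holds the 4 STAT motifs printed above, and its level was among the lowest of the 10.

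SOCS1 (ENSG00000185338, chromosome 16, 11254405 to 11256200, minus strand), the feedback inhibitor of interferon signalling, was at 0.181, 0.204 and 0.107 FPKM with DMSO and 0.118, 0.449 and 0.372 FPKM with CuB. CuB replicate 1 fell among the DMSO libraries. The groups held 14 and 25 fragments, for a ratio of 1.92 (exact 95% interval 0.961 to 4.0, counting error only), and a difference was not detectable at this depth (adjusted p without a filter 0.416).

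The 8 genes of the SOCS family together were at 44.2, 44.5 and 48.0 FPKM with DMSO and at 72.0, 71.0 and 67.3 FPKM with CuB. The summed level was 1.54 times as high with CuB, and no library of one group reached the other. Of the 6 tested genes 4 rose and none fell, with a median log2 fold change of 0.41. SOCS3 held 12.1% of the sum with DMSO and 27.0% with CuB, and SOCS2 held 4.09% and 8.68%. SOCS4, SOCS6 and SOCS7 took smaller shares with CuB in every library than with DMSO, SOCS4 going from 23.0% to 13.8%. SOCS5, a regulator of epidermal growth factor receptor signalling, was at 8.26, 8.26 and 10.1 FPKM against 13.4, 12.3 and 11.8 FPKM and rose by 0.45 (adjusted p = 0.0132). SOCS6 was at 7.78, 7.25 and 8.41 FPKM against 11.5, 9.68 and 9.72 FPKM and rose by 0.36 (adjusted p = 0.0284). Both of these smaller rises were scale dependent: with equal fragment totals the adjusted p was 0.0512 for SOCS5 and 0.130 for SOCS6. Leaving out DMSO replicate 1 or CuB replicate 2 also ended the call of SOCS5 (adjusted p = 0.0578 and 0.0505) and of SOCS6 (0.0884 and 0.0654), and that of SOCS6 was lost without CuB replicate 1 (0.0728) or 3 (0.0529) as well.

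**Figure D3:**
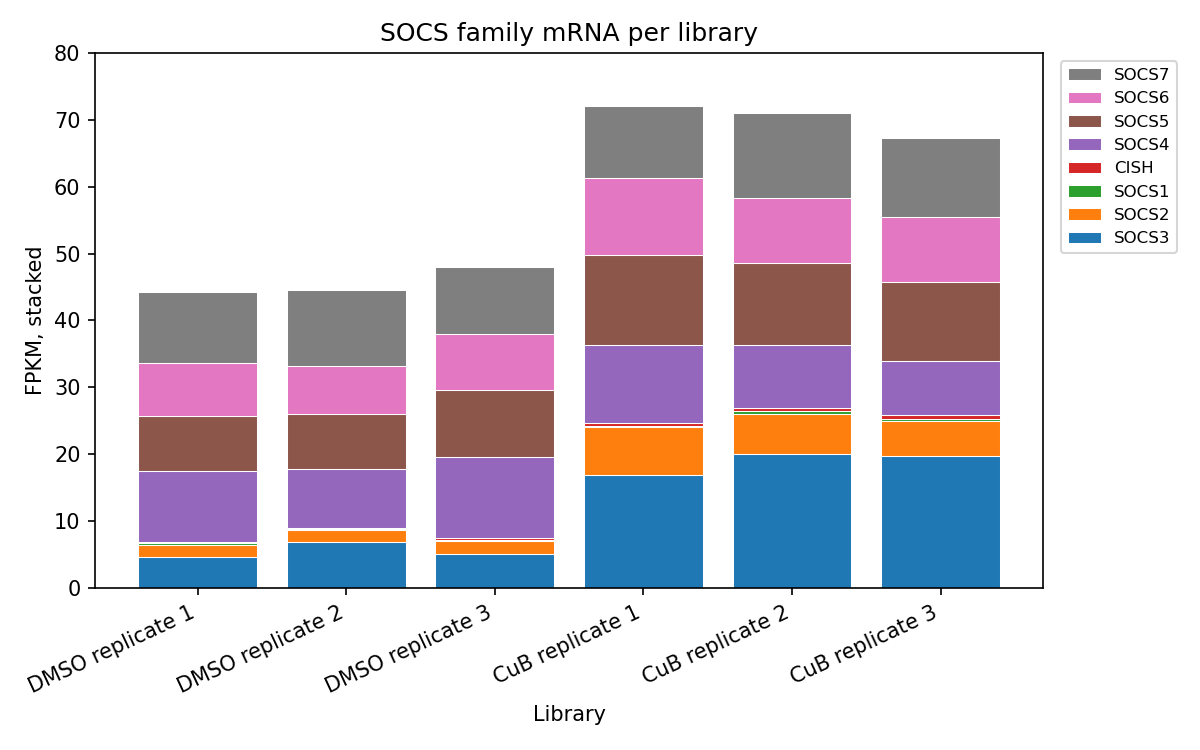
Stacked FPKM of the 8 SOCS family genes in each of the 6 libraries. The bars reach 44.2 to 48.0 FPKM with DMSO and 67.3 to 72.0 FPKM with CuB, and the segments of SOCS3 (blue) and SOCS2 (orange) at the base are larger in each CuB library.

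A list of 14 other regulators and adaptors of the pathway held 13 tested genes, of which 4 rose and none fell, with a median log2 fold change of 0.04. PTPN1, a phosphatase that acts on JAK2 and TYK2, was at 37.0, 38.1 and 36.0 FPKM with DMSO and 53.9, 51.1 and 50.4 FPKM with CuB, and rose by 0.47 (adjusted p = 0.00235). PTPN2, a phosphatase of JAK1 and of STAT proteins, rose by 0.52 (adjusted p = 0.0106). CBL, a ubiquitin ligase for activated receptors, rose by 0.43 (adjusted p = 0.00901), a call that ended with quantile normalization (adjusted p = 0.0648). The fourth, PTPN11, a phosphatase that passes on receptor signals, is named here after its values were seen. It passed at the threshold (0.26, adjusted p = 0.0497) and lost the call in 16 of the 20 alternative settings, among them leaving out any 1 library (adjusted p = 0.0611 to 0.149). The count of genes called lower was 2 with quantile normalization, equal fragment totals, the GC correction and without DMSO replicate 2.

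Cytokines and receptors of the interleukin-6 family, which act upstream of STAT3, moved both ways. Of 12 tested genes of 17 listed, 6 rose and 3 fell, with a median log2 fold change of 0.49. IL11 rose by 4.18 and LIF by 3.35 on the log2 scale (adjusted p = 3.82e-06 and 4.69e-06). CLCF1, a ligand of the ciliary neurotrophic factor receptor, was at 2.57, 3.31 and 1.98 FPKM with DMSO and 24.4, 24.9 and 23.0 FPKM with CuB, and rose by 2.81 (adjusted p = 2.16e-05). The other 3 that rose, IL6R (0.59), CNTF (0.52) and EBI3 (0.78), are named here after their values were seen, as are those that fell. Of the receptor chains, LIFR fell by 1.15 (adjusted p = 0.00289) and OSMR by 0.87 (adjusted p = 0.00159). IL11RA passed only narrowly as lower (-0.48, adjusted p = 0.0465), and it averaged 1.69 FPKM with DMSO but 0.926 FPKM with CuB, so that it reached the filter only through the DMSO group. Its call ended without any 1 of the 6 libraries (adjusted p = 0.0593 to 0.112), with no filter (0.119) and with the replicate block (0.0640). Without IL11RA, 6 of 11 genes rose and 2 fell, and the median was 0.52. IL6ST, the shared signalling chain, averaged 28.9 FPKM (DMSO) and 39.9 FPKM (CuB) and did not pass (0.46, adjusted p = 0.0549), although the GC correction made it pass (0.47, adjusted p = 0.000311), as did leaving out DMSO replicate 3 (0.56, adjusted p = 0.0433). IL6 itself was at 0, 0 and 0.0310 FPKM against 0.512, 0.162 and 0.356 FPKM, under the filter, from 1 and 31 fragments in all. In the fit without a filter it passed as higher (0.40, adjusted p = 0.0478). Secretion and receptor engagement were not measured.

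Of 21 other receptors that signal through JAK kinases 8 were tested, of which 3 rose and 1 fell, with a median log2 fold change of 0.20. IL7R, the interleukin-7 receptor chain, was at 1.51, 0.998 and 1.34 FPKM with DMSO and 14.5, 12.7 and 12.4 FPKM with CuB, and rose by 2.64 (adjusted p = 1.3e-05). IL4R rose by 0.67 (adjusted p = 0.00425). IL13RA1, its partner in the type II interleukin-4 receptor, was at 15.6, 12.8 and 15.9 FPKM against 9.62, 7.56 and 8.15 FPKM and fell by 0.74 (adjusted p = 0.00357). The third that rose, IFNGR1, a chain of the interferon gamma receptor named after its values were seen (0.41, adjusted p = 0.0424), lost the call in 9 of the 20 settings. These included leaving out DMSO replicate 1 or 2 or any CuB library (adjusted p = 0.0539 to 0.113) and equal fragment totals (0.140).

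PIM1 (ENSG00000137193, chromosome 6, 37170203 to 37175426, plus strand) encodes a serine/threonine kinase that promotes survival and is a target of STAT3 and STAT5. It was at 3.65, 4.62 and 3.42 FPKM with DMSO and at 6.71, 6.82 and 6.54 FPKM with CuB. The CuB libraries lay close together and above all DMSO libraries, of which replicate 2 was the highest. PIM1 rose 1.72-fold, from 3.90 ± 0.633 to 6.69 ± 0.142 FPKM (SD, n = 3 each), and on log2(FPKM + 1) the difference was 0.66 (limma SE 0.109, adjusted p = 0.00370).

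PIM1 was a minor part of its family. PIM3 was at 25.6, 41.5 and 23.4 FPKM with DMSO and 68.9, 92.6 and 102.9 FPKM with CuB and rose by 1.54 (adjusted p = 0.00273). PIM2 fell by 0.28 (adjusted p = 0.0455), a call that ended in 9 of the 20 alternative settings, 5 of which left out a library (DMSO replicate 1 or 2, or any CuB library; adjusted p = 0.0685 to 0.154). Within the summed FPKM of the 3 kinases, PIM1 went from 9.60% to 6.81%, PIM3 from 72.4% to 87.4% and PIM2 from 18.0% to 5.78%. A rise of PIM1 thus went with a smaller PIM1 share, and the groups did not overlap in any of the 3 shares.

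BCL3 (ENSG00000069399, chromosome 19, 44747705 to 44760044, plus strand) is an atypical member of the IkB family that acts in the nucleus with NF-kB subunits and is also a STAT3 target. It was at 6.27, 9.23 and 5.28 FPKM with DMSO and at 20.0, 23.2 and 23.0 FPKM with CuB. The DMSO libraries were spread, with replicate 2 highest, and still far under the CuB libraries. BCL3 rose 3.19-fold, from 6.93 ± 2.06 to 22.1 ± 1.82 FPKM (SD, n = 3 each), and on log2(FPKM + 1) the difference was 1.57 (limma SE 0.180, adjusted p = 0.000795).

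The IkB family holds 6 genes, all tested, of which 5 rose and none fell, with a median log2 fold change of 1.88. NFKBIA, the classical inhibitor of NF-kB and itself an NF-kB target, rose by 2.64 (adjusted p = 4.96e-06). NFKBIE rose by 2.44 (adjusted p = 0.000119) and NFKBIZ, another nuclear member, by 2.19 (adjusted p = 8.18e-05). BCL3 had a smaller log2 fold change than these 3 and a larger one than the rest of the family. These were NFKBIB, which rose (1.32, adjusted p = 0.0013), and NFKBID, which did not pass (0.45, adjusted p = 0.0598). Both are named after their values were seen, and the differences between genes were not tested.

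A2M (ENSG00000175899, chromosome 12, 9067664 to 9116229, minus strand) encodes alpha-2-macroglobulin, a secreted inhibitor that traps proteases. It was taken here as a STAT3 target, and whether STAT3 acts on it in these cells was not tested. It was at 8.59, 8.25 and 10.6 FPKM with DMSO and at 3.52, 2.80 and 3.08 FPKM with CuB. Every CuB library was under every DMSO library by a wide margin. Mean A2M was 2.92-fold lower with CuB, at 9.15 ± 1.28 FPKM against 3.13 ± 0.360 FPKM (SD, n = 3 each), and the gene fell by 1.29 on the log2 scale (SE 0.120, adjusted p = 0.000317). It ranked 154th by fall among the tested genes. A2M-AS1 shares 561 of the 6384 exon bases of A2M on the other strand and averaged 0.179 FPKM (DMSO) and 0.0576 FPKM (CuB). LRP1, the receptor that clears alpha-2-macroglobulin complexes, fell by 0.51 (adjusted p = 0.0240). The difference stayed lower but missed the threshold without DMSO replicate 1 (-0.51, adjusted p = 0.0715), CuB replicate 1 (-0.40, 0.0593) or CuB replicate 2 (-0.56, 0.0550). CD109, a membrane-bound relative, had a log2 fold change of -0.25 (adjusted p = 0.177) and passed as lower without DMSO replicate 2 (-0.37, adjusted p = 0.0294). The ratio of A2M to LRP1 was 0.966 ± 0.275 with DMSO and 0.494 ± 0.135 with CuB, and the groups did not overlap.

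The 4 tested STAT3 targets among the members, SOCS3, BCL3, PIM1 and A2M, thus moved both ways. In a wider list of 30 STAT3 target genes 25 were tested, of which 15 rose and 6 fell, with a median log2 fold change of 0.66. Without the members, 21 were tested, 12 rose and 5 fell, and the median was 0.47. MMP9, a matrix protease, was at 0.223, 0.288 and 0.302 FPKM with DMSO and 13.8, 16.7 and 16.9 FPKM with CuB, so it passed the filter only through the CuB group (3.72, adjusted p = 3.82e-06). Without it, 14 of 24 genes of the list rose and 6 fell, and the median was 0.56. FOS, a subunit of AP-1, rose by 3.29 (adjusted p = 3.82e-06). LIF is in this list as well as among the cytokines. The 6 that fell were A2M, MYC (-1.17), TWIST1 (-1.02), SERPINA3 (-0.96), OSMR (-0.87) and MMP2 (-0.69). Apart from A2M they are named after their values were seen. The 5 genes under the filter, FGG, FGB, CRP, HP and LBP, are acute-phase genes of the liver. Most genes of the list are also known targets of other factors, so the list is not specific to STAT3.

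Targets assigned to STAT5 overlapped with the members. Of 10 STAT5 targets 4 were tested and all 4 rose: SOCS2, SOCS3 and PIM1, which are members, and BCL6, a transcriptional repressor (0.61, adjusted p = 0.0019). BCL6 was thus the only tested target outside the members, and SOCS3 and PIM1 were counted among the STAT3 targets as well. Over the union of the 11 lists without the 10 members, 71 of 102 genes were tested, 33 rose and 11 fell, and the median was 0.34. Beside this and the other list counts, 22.9% of all tested genes rose and 15.6% fell.

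**Figure D4:**
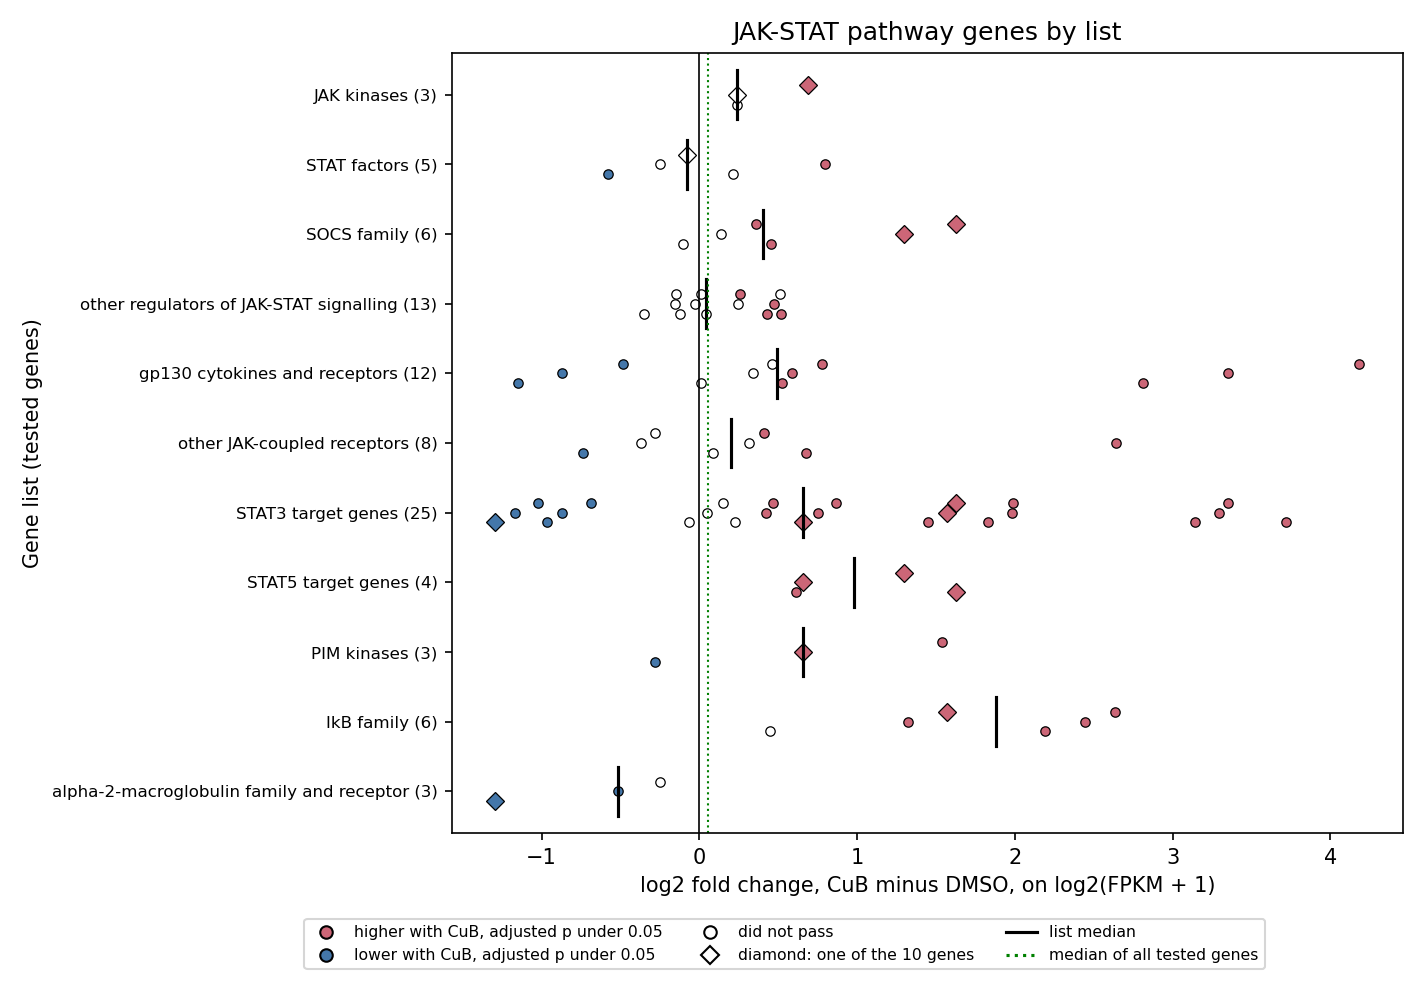
Log2 fold change (CuB minus DMSO, on log2(FPKM + 1), horizontal axis) of each tested gene of 11 gene lists, with the number tested in parentheses. Red and blue symbols passed as higher and lower, open ones did not pass, diamonds are members, black bars list medians and the green line the median of all tested genes. List medians run from -0.51 for the alpha-2-macroglobulin family to 1.88 for the IkB family, and the STAT factors lie at -0.08.

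The order of the levels in FPKM, which compares genes only roughly, also changed. With DMSO it ran STAT3, JAK1, A2M, BCL3, SOCS3, PIM1, JAK2, SOCS2, CISH and SOCS1, and the ranges of A2M and BCL3, BCL3 and SOCS3, SOCS3 and PIM1, and CISH and SOCS1 overlapped. With CuB it ran BCL3, STAT3, JAK1, SOCS3, PIM1, SOCS2, JAK2, A2M, CISH and SOCS1. The ranges of each of the first 4 overlapped with the next among them, as did PIM1 with SOCS2, SOCS2 with JAK2, and CISH with SOCS1. A2M went from the third place to the eighth, and BCL3 and SOCS3 joined STAT3 and JAK1 near 20 FPKM.

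Replicates within a group differed in a way that followed the base composition of the genes. The deviation of each library from the mean of a gene over all 6 libraries was taken on the log2 scale. In DMSO replicate 2 its median was -0.18 for genes under 45% GC and 0.28 for genes of at least 60% GC. DMSO replicates 1 and 3 had 0.03 and 0.08 under 45% GC and -0.17 and -0.25 at 60% or more. In CuB replicate 1 the medians were 0.14 and -0.15. CuB replicates 2 and 3 had 0.00 and -0.06 under 45% GC and 0.07 and 0.21 at 60% or more. The members span 39.2% GC (JAK2) to 69.1% GC (SOCS1). DMSO replicate 2 had the lowest DMSO value in JAK2, JAK1, SOCS2, A2M and CISH and the highest in PIM1, SOCS3, BCL3 and SOCS1. Without it, the log2 fold change was 0.58 for JAK2 (adjusted p = 0.00724), 1.77 for SOCS3, 1.77 for BCL3 and 0.76 for PIM1, and these 4 calls held. The JAK1 difference was then 0.15 (adjusted p = 0.180).

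**Figure D5:**
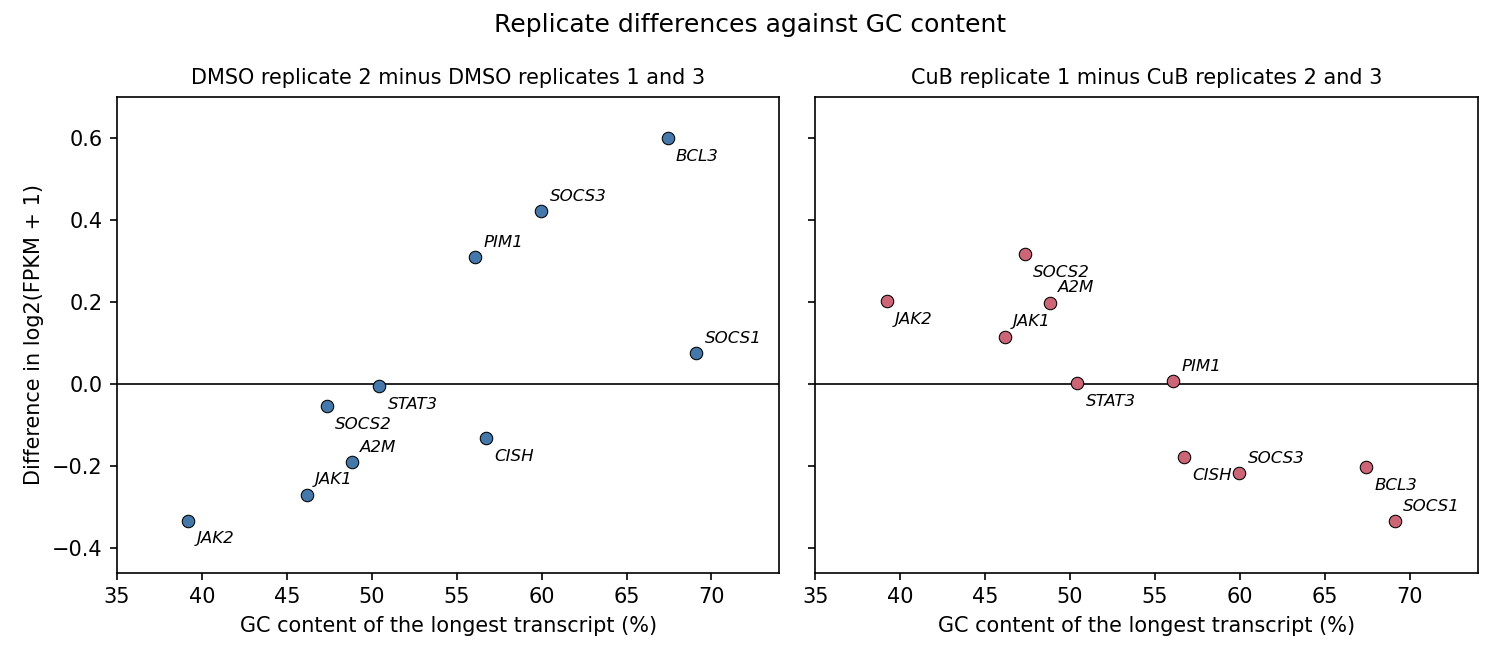
Difference in log2(FPKM + 1) between one replicate and the mean of the other 2 of its group, for DMSO replicate 2 (left) and CuB replicate 1 (right), against the GC content in percent of the longest transcript of each of the 10 genes. The difference is -0.33 for JAK2 and 0.60 for BCL3 in DMSO replicate 2, and the points run the other way in CuB replicate 1.

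The genes whose values followed STAT3 most closely over the 6 libraries, among 7713 genes averaging 5 FPKM or more, were NAA40 (Pearson r = 0.97), SIK2 (0.96), SCPEP1 (0.95), the pseudogene HNRNPA1P48 (0.93) and PRR3 (0.93). For SOCS3 they were FAM83G, SLC25A25, DNAJB1, RRP12 and FOXC2, with r of at least 0.9985. The points share the 2 treatments, so any gene with a large difference between groups and little spread correlates with SOCS3. STAT3 varied little, and its 5 genes are the highest among 7713 over only 6 libraries. Such a search can return a high r from noise alone, so the values for both genes are a description.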

How the data were processed

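mRNA of A375 cells was measured in 3 DMSO and 3 CuB libraries. The authors deposited FPKM values per gene. Libraries were made with a TruSeq RNA kit, per the labels' protocols, and the genome build is given as GRCh38, per the submitters' processing notes. For the aligner and counter, names were not given in the sources used here. GENCODE 29 matched the table in identifier and position for each of 58735 genes and gave GC content and overlaps. Columns were matched to samples by name, with 0 sample columns unused.

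FPKM multiplied by gene length and by the library size implied by the smallest values gave whole fragments within 0.01 for 100% of values in each library. Of these, the libraries held 14845976, 15797757 and 15116550 (DMSO) and 15502971, 16072462 and 16137093 (CuB) fragments. Intervals of fragment ratios cover counting error only.

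Values were tested as log2(FPKM + 1) with limma 3.58.1 in R 4.3.3 (moderated test, intensity trend, 4 residual degrees of freedom, two-sided, no replicate block) for genes averaging 1 FPKM or more. Fragment totals and scaling sizes were compared by exact permutation tests, whose p cannot go below 0.1 with 3 libraries a group. The limma step was tested on simulated data. Plots used Python 3.11.15 and matplotlib 3.10.9.

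The 10 members and the 11 gene lists were chosen with earlier results of these data known. Some results for single genes and lists are not reported here. All members are named, and of each list up to 3 other genes with the largest change among those that passed (or, where fewer than 2 passed, the 2 with the highest mean), plus the 5 genes most like STAT3 and SOCS3. Other genes, such as IL6, IL6R, IL6ST, IL11RA, LIFR, OSMR, CNTF, EBI3, PTPN11, IFNGR1, SOCS4 and SOCS7 and the 5 acute-phase genes, were named after their values were seen. NFKBIB, NFKBID, MYC, TWIST1, SERPINA3 and MMP2 were named in the same way. Alternatives tried were no filter or a minimum of 5 FPKM, pseudocounts of 0.1 and 0.5, other scalings (TPM, median of ratios, quantile, equal fragment totals), limma without trend or with robust hyperparameters, limma-voom on recovered fragments, the replicate block, a GC correction (lowess, span 0.3) with and without the block, and each library left out.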

Additional observations from a re-analysis of the deposited data

How the results depend on the processing

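None of the 8 tested members changed sign under the alternative settings, of which there were 20 (19 for JAK2 and SOCS2). CISH and SOCS1 were fitted only without the filter. A2M ranged from -1.54 to -1.19 on the log2 scale, BCL3 from 1.42 to 1.77, SOCS3 from 1.47 to 1.79, SOCS2 from 1.17 to 1.69, JAK2 from 0.56 to 0.89 and PIM1 from 0.52 to 0.79. These 6 calls held wherever the gene was tested. With a minimum mean of 5 FPKM, 3 members rose, since JAK2 and SOCS2 were then not tested. With quantile normalization and with equal fragment totals 2 members fell, STAT3 being the other. Over all genes, 3046 rose and 2072 fell (59.5% of calls higher). This became 2010 and 3136 (39.1%) with equal fragment totals, and 985 fell with a minimum of 5 FPKM (69.7% higher). With the GC correction 3113 fell. The share of calls higher was 46.5% with TPM and 47.2% with quantile normalization. Leaving out 1 library, which keeps 2 in its group, gave 1945 to 3462 genes that rose and 1316 to 2263 that fell. Same-numbered replicates deviated with correlations of 0.27, 0.12 and -0.36, and differently numbered ones with correlations from -0.49 to 0.47. Replicates also differed by GC content, so these correlations cannot show whether same-numbered libraries were paired. With the replicate block 2647 genes rose and 1796 fell, and with the block and the GC correction 4310 and 2915. The block changed no member's call. Depth limits SOCS1 most, whose counting interval includes a ratio of 1.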
